A study of Bos taurus and Bos indicus with 3 samples.

Results

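Potassium, calcium, chloride and TRP (transient receptor potential) channels were examined in mRNA-Seq libraries of cattle leukocytes. The members were gene models with a single name that began with KCN, KCMB, KCMA, CACN, CLCN, CLIC, TRPC, TRPM or TRPV and that had a value above 0 in any library. The names chose them, apart from the condition that a value lay above 0. The rule found 31 models of 15286 that were above 0 in any library. Another 62 single-name models of these families were listed at 0 in all 3 libraries, of 93 in the table. A merged model of CACNG8 and a microRNA was not counted and was also at 0.

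The libraries were made from leukocytes of pooled tail vein blood, 1 library per breed. The Holstein pool held 40 cows and the Jersey pool 7 cows, both taurine breeds kept in university herds in Wisconsin. The Cholistani pool held 45 cows of an indicine breed from a farm in Pakistan, and only its RNA travelled in a dry storage matrix. Breed, place, herd and RNA transport therefore cannot be told apart, the labels name no treatment, and ages of the cows are not in the sources used here. Each value is an FPKM, the authors' estimate of fragments scaled by transcript length and library size, with upper-quartile scaling and bias correction. As each breed has 1 library, the values have no error and the breeds could not be tested against each other. The number of fragments behind a value is unknown. A model is called where FPKM + 1 differs 2-fold or more, a scale that understates folds of low values. Where 3 values follow each other they stand for Holstein, Jersey and Cholistani in that order. Where a library is listed at 0, no ratio is given. Positions are on btau4.0.

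Ion channels let ions cross membranes down their gradients. In leukocytes potassium channels hold the membrane voltage negative, which favours the entry of calcium, and calcium in turn drives activation, cytokine production and migration. Chloride channels and exchangers serve cell volume and the acidity of endosomes and lysosomes, and TRP channels are cation channels gated by lipids, calcium, oxidants or temperature. Many channels need accessory subunits, which pass no current themselves and change gating or transport to the membrane.

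Potassium channel genes gave 16 of the 31 members, with 43 further models at 0. TRP genes gave 8 members with 9 at 0, and chloride genes 7 members with 2 at 0. No voltage-gated calcium channel model was a member: the 1 pore subunit (CACNA1F) and the 7 accessory subunit models carried by a name with this start were all at 0. The same held for the 6 inward rectifiers (KCNJ) and the 4 TRPV models. These zeros describe the named models only. RefSeq lists 158 bovine genes with these name starts, and 68 of them were not found under their symbol on a single-name model, among them 9 of the 10 CACNA1 genes. Of the 68, 10 were recognized under a protein entry name. Of the members, 30 matched a RefSeq symbol, and KCMB1 is the protein entry name of KCNMB1.

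The members lay in the lower part of the expression range. Of 4 classes of all models by mean expression, the lowest held 12 members, the next 10, the third 5 and the highest 4. Among those above 0, the median member had 45.1, 28.3 and 36.6 FPKM. The medians over all models were 91.6, 89.6 and 93.8 FPKM. The members above 0 numbered 27, 27 and 28. Of the 31, 23 (74.2%) were above 0 in all 3 libraries, against 79.8% of all models. The members summed to 4594, 4359.9 and 5087 FPKM, and CLIC1 alone made up 52.7%, 58.4% and 66.4% of these sums.

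**Figure D1:**
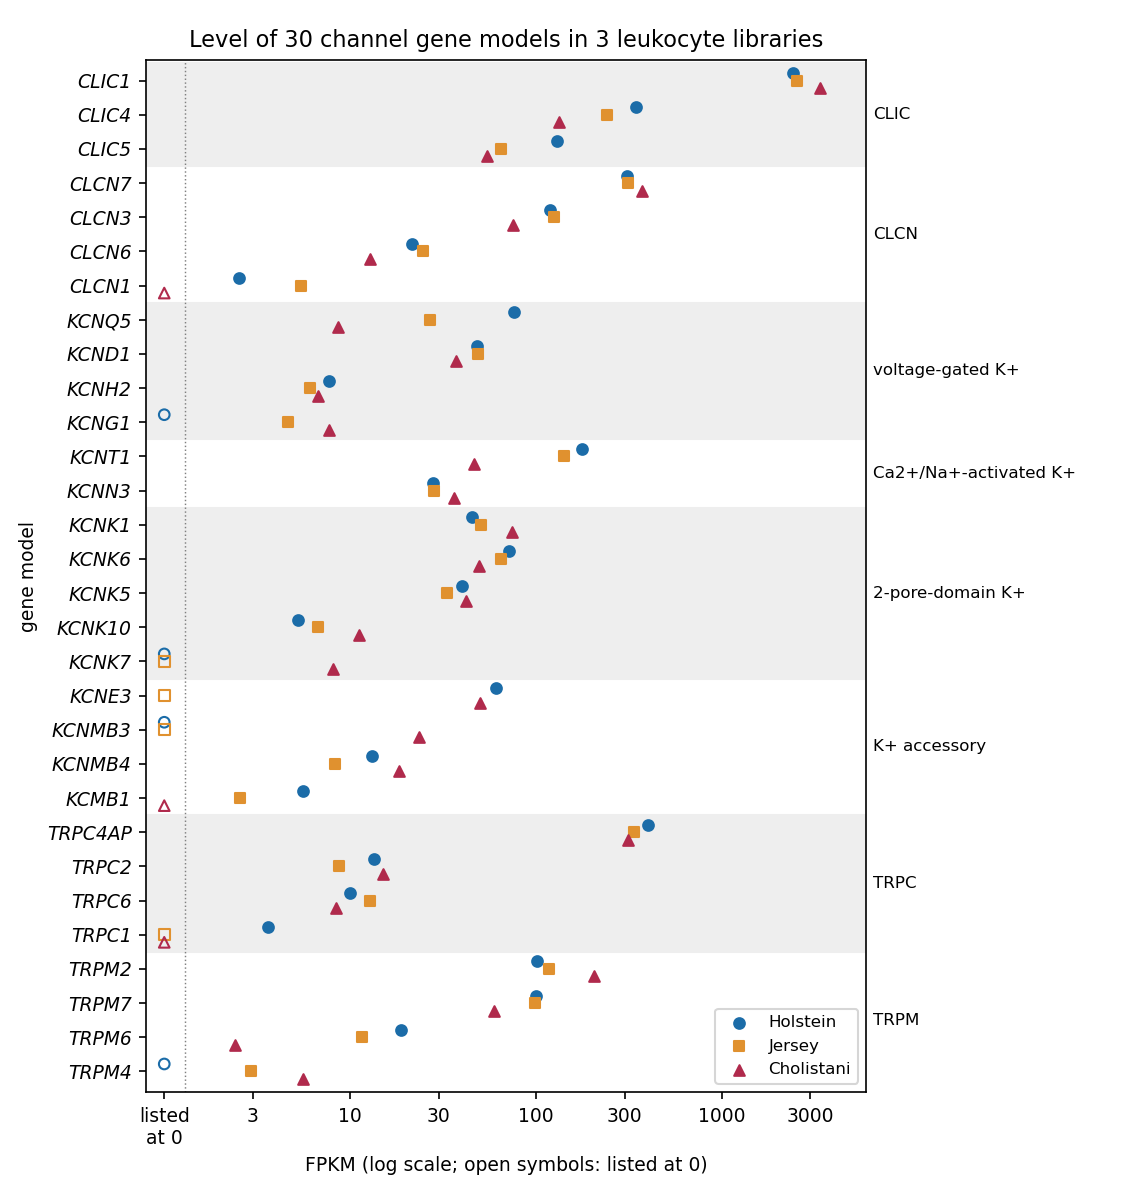
FPKM (log scale) of 30 of the 31 channel gene models, grouped by role, with 1 point per library for Holstein (circles), Jersey (squares) and Cholistani (triangles) and open symbols at the left for models listed at 0. CLIC1 lies farthest right in each library, and from Holstein to Cholistani KCNQ5 falls from 76.5 to 8.66 FPKM while TRPM2 rises from 102 to 206.

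CLIC1, a chloride intracellular channel protein that exists in a soluble and a membrane form, was the most abundant member. CLIC1 lay on chromosome 23 from 27361767 to 27384690 and had 2422, 2548 and 3377 FPKM, above 97.6% of the models detected in Holstein. The Cholistani value was 1.39 times the Holstein value, but with each library rescaled to the mean FPKM sum the log2 fold turned from 0.48 to -0.20. CLIC1 shared its listed span with the meiotic MutS homologue MSH5, which had 4.70, 4.01 and 0 FPKM.

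CLIC4, a family member tied to the cytoskeleton and membrane traffic, went the other way. On chromosome 2 from 132520934 to 132573341, CLIC4 had 344, 243 and 134 FPKM. The Holstein value was 2.57 times the Cholistani value and the Jersey value 1.81 times. CLIC5, which links membranes to actin, had 129.5, 64.7 and 54.8 FPKM. Here Holstein lay above both other libraries. It had 2.003 times the Jersey value, at a log2 fold of Jersey to Holstein of -0.99 in FPKM + 1. This lay just inside the 2-fold limit and passed it with a pseudocount of 0.1, with centring and with rescaling, the lowest value being -1.07. Thus of the 3 CLIC members 2 were lower in Cholistani than in Holstein, none against Jersey as deposited, and the fourth model, CLIC6, was at 0. CLIC4 passed the limit against Jersey with centring (-1.02) and with rescaling to a sum of 1000000 (-1.39) or to the mean sum (-1.45).

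Of the CLCN genes, CLCN7 encodes a chloride-proton exchanger of lysosomes, and CLCN3 and CLCN6 encode exchangers of endosomes. CLCN7, on chromosome 25 from 1591774 to 1612348, had 311, 313 and 375 FPKM. CLCN3 had 119, 125 and 75.04 FPKM and CLCN6 had 21.5, 24.8 and 12.9 FPKM. The taurine values of these 3 genes differed by at most 1.15 times and Cholistani stood apart, above them for CLCN7 and below them for CLCN3 and CLCN6. The log2 fold of CLCN7 between Cholistani and Holstein was 0.27, and -0.41 with rescaling to the mean sum. Those of CLCN3 and CLCN6 were -0.66 and -0.70, short of the 2-fold limit as deposited. With rescaling to the mean sum both were at -1.33, past the limit, and with rescaling to a sum of 1000000 CLCN3 was at -1.24 and CLCN6 at -0.97. CLCN1, the chloride channel of skeletal muscle, had 2.52 FPKM in the Holstein and 5.47 in the Jersey library and was listed at 0 for Cholistani.

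Among voltage-gated potassium channels, KCNQ5, a slow M-type channel, showed the largest difference between libraries of all members above 0 in each. KCNQ5 lay on chromosome 9 from 11540011 to 12245360, the longest span among the members, which it shared with an unnamed model of 18.5, 15.5 and 13.3 FPKM. KCNQ5 had 76.5, 26.8 and 8.66 FPKM. The Holstein value was 8.83 times the Cholistani value and 2.85 times the Jersey value, and Jersey had 3.10 times the Cholistani value. The 3 libraries thus all lay apart, and KCNQ5 was the only member above 0 in both taurine libraries that passed the 2-fold limit between them in FPKM + 1. With a pseudocount of 0.1, CLCN1 (1.09 for Jersey to Holstein), KCMB1 (-1.10) and CLIC5 also passed it. The log2 fold of KCNQ5 between Cholistani and Jersey was -1.53, and -0.98 with a pseudocount of 10 FPKM, short of the limit.

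Of the other voltage-gated members, none that was above 0 in all libraries was called in any pair. KCND1, an A-type channel on the X chromosome, had 48.1, 48.6 and 37.0 FPKM. KCNH2, whose product repolarizes heart muscle, had 7.67, 6.08 and 6.75 FPKM. KCNG1, which forms no channel alone and modifies others, was listed at 0 for Holstein, with 4.61 FPKM for Jersey and 7.66 for Cholistani. Of 31 voltage-gated models 26 were at 0 in all libraries.

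KCNT1, a sodium-activated potassium channel, had the highest level of a potassium channel model in both taurine libraries. KCNT1 lay on chromosome 11 from 107245539 to 107296126 and had 176, 142 and 46.7 FPKM. The taurine values were 3.77 and 3.05 times the Cholistani value, with log2 folds of -1.89 and -1.59, and both calls held under every alternative tried. KCNN3, a small-conductance calcium-activated channel, had 27.8, 28.3 and 36.3 FPKM and was called in no pair of libraries.

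The 2-pore-domain channels, which carry the background potassium current, gave 5 members. KCNK1 had 45.1, 50.9 and 74.7 FPKM, the highest level of a potassium channel model in Cholistani. KCNK6 had 71.9, 65.0 and 49.3 FPKM, and KCNK5, a channel of cell volume control, had 40.2, 33.1 and 42.0 FPKM. KCNK10, a channel opened by stretch and lipids, had 5.24, 6.76 and 11.2 FPKM. None of these 4 was called in any pair as deposited, although the ratio of KCNK10 between Cholistani and Holstein was 2.13 without the added 1 FPKM. KCNK7 was listed at 0 in both taurine libraries and had 8.06 FPKM in Cholistani, within a span shared with a merged model of EHBP1L1 that was far more abundant (788, 875 and 1378 FPKM).

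Of the 4 accessory subunits of potassium channels, 3 were listed at 0 in some library. KCNE3, which modifies voltage-gated channels, was listed at 0 for Jersey, with 61.0 FPKM for Holstein and 49.96 for Cholistani. Its model spans only 285 bases on chromosome 15, from 53387184 to 53387468, the shortest among the members. The KCNE3 log2 folds of Cholistani to Jersey (5.67) and of Jersey to Holstein (-5.96) were the widest of the members in these pairs. Both rest on the 0 in Jersey, and how reliably so short a model is measured was not tested. The other 3 are beta subunits of the large-conductance calcium-activated channel, whose pore model KCMA1 was at 0 in all libraries. KCNMB3 was at 0 in both taurine libraries and had 23.5 FPKM in Cholistani, the most abundant member found in a single library. KCNMB4 had 13.1, 8.33 and 18.3 FPKM, and was called higher against Jersey at a log2 fold of 1.05. That call was lost with a pseudocount of 10 FPKM (0.62) and with centring (0.88). It was also lost with rescaling to the mean sum (0.49) or to a sum of 1000000 (0.33). The span of KCNMB4 was shared with an unnamed model of 8.59, 8.01 and 0 FPKM. KCMB1 had 5.60 FPKM in the Holstein and 2.56 in the Jersey library and was at 0 for Cholistani. As the pore model of this channel was at 0 in all libraries, none could show it together with a beta subunit model.

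TRPM2, a calcium-permeable channel of phagocytes and other leukocytes that opens with oxidative stress, was the only member above 0 in Holstein that was called higher in Cholistani than in Holstein. TRPM2 lay on chromosome 1 from 147127614 to 147179325 and had 102, 117 and 206 FPKM. The Cholistani value was 2.03 times that of Holstein and 1.76 times that of Jersey. The log2 fold against Holstein was 1.01, at the limit, and the call was lost with centring on the median of abundant models (0.82), with a pseudocount of 10 FPKM (0.95) and with rescaling to the mean sum (0.34) or to a sum of 1000000 (0.32), all with TRPM2 still higher in Cholistani. TRPM7, a channel fused to a kinase that carries magnesium and calcium, had 99.97, 99.0 and 59.9 FPKM. Its taurine values were nearly the same, and the log2 fold of Cholistani to Holstein was -0.73. TRPM6, a related channel-kinase known for magnesium uptake in gut and kidney, had 18.8, 11.5 and 2.42 FPKM, with log2 folds of Cholistani of -2.54 to Holstein and -1.88 to Jersey. The second became -0.79 with a pseudocount of 10 FPKM. TRPM4, which calcium opens but does not pass, was listed at 0 for Holstein, with 2.93 FPKM for Jersey and 5.60 for Cholistani, in a span of 251 kb shared with 8 detected models.

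TRPC4AP, whose name gave the most abundant TRP member, encodes no channel but a TRPC4-associated adaptor of TNF receptor signalling and of a ubiquitin ligase. TRPC4AP had 403, 339 and 313 FPKM, and TRPC4 itself was at 0 in all libraries. The channel genes of the TRPC family were low. TRPC2 had 13.4, 8.76 and 15.0 FPKM, TRPC6, which diacylglycerol opens, had 10.04, 12.8 and 8.40 FPKM, and TRPC1 had 3.61 FPKM in the Holstein library and was listed at 0 for the other two. Without TRPC4AP the TRP members summed to 248, 252 and 298 FPKM.

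Between Cholistani and Holstein, 5 members were called higher, 8 lower and 18 neither. Higher calls were 16.1% of the members, against 19.7% of all 15284 models with values to compare, and lower calls 25.8%, against 13.7%. Of the 5 higher calls 4 (KCNG1, KCNK7, KCNMB3 and TRPM4) rested on a value of 0 in Holstein, which leaves TRPM2. Of the 8 lower calls 3 (CLCN1, KCMB1 and TRPC1) rested on a 0 in Cholistani, which leaves CLIC4, CLIC5, KCNQ5, KCNT1 and TRPM6. Among the 23 members above 0 in all libraries, 1 was higher and 5 were lower, against 13.6% and 8.59% of such models in the series. The median log2 fold of the members was -0.23, and that of all models 0.15. By family the medians were 0.22 for potassium channel models, -0.30 for TRP (-0.23 without TRPC4AP) and -0.70 for chloride models.

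**Figure D2:**
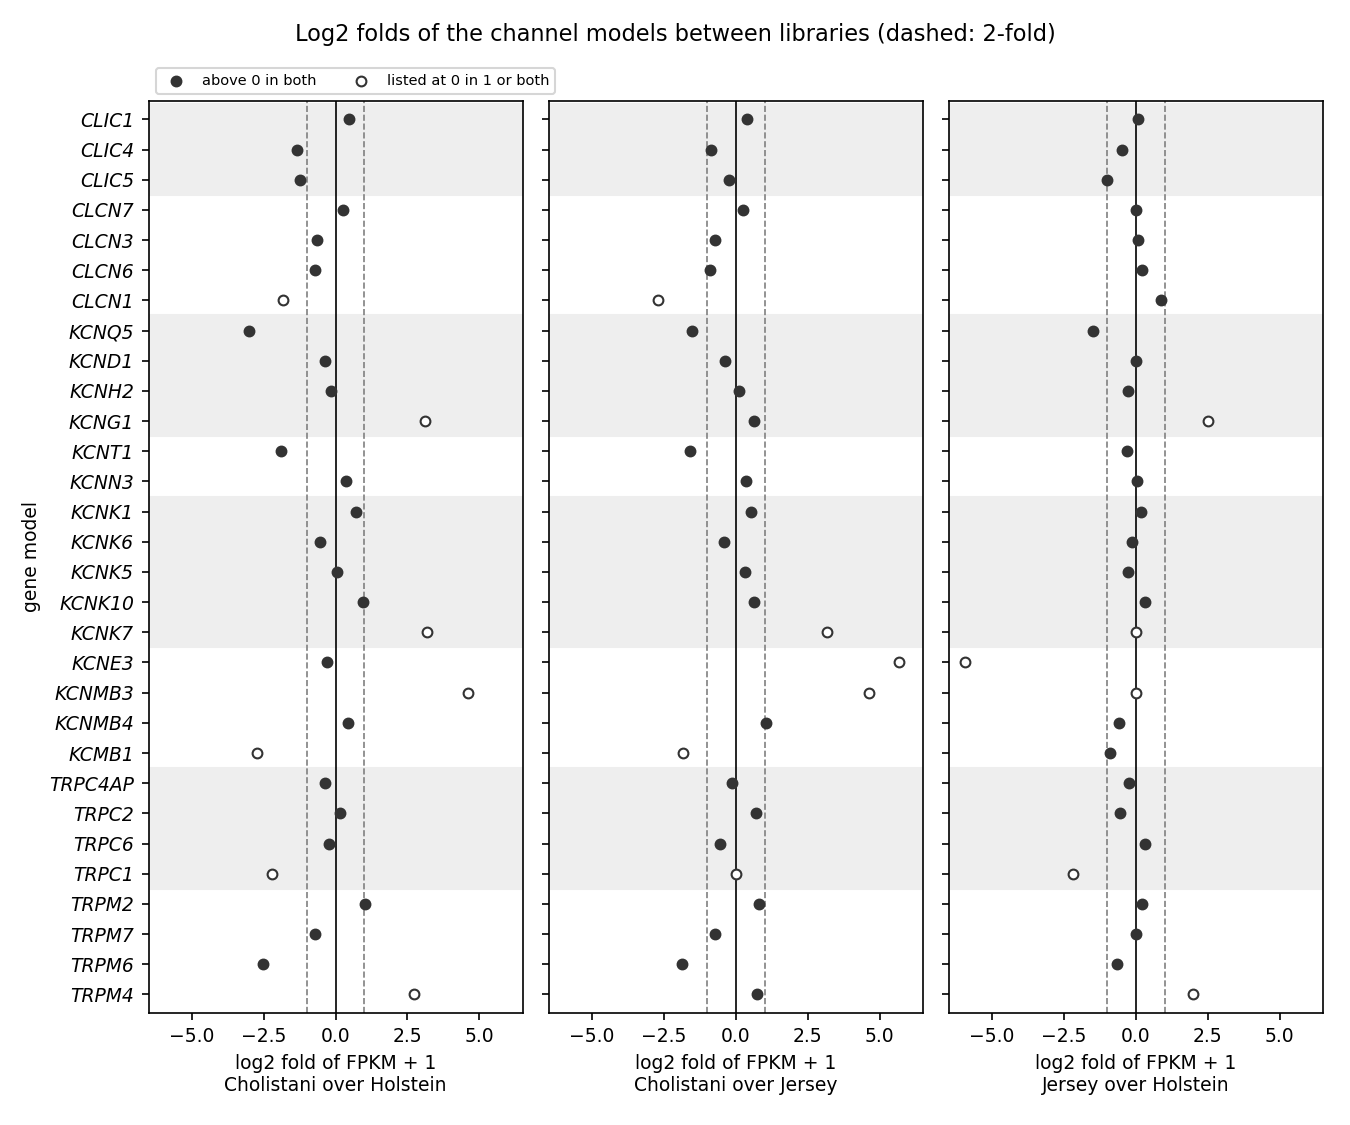
Log2 fold of FPKM + 1 for 30 of the 31 channel models in the 3 pairs of libraries, with dashed lines at 2-fold and open circles where a library was listed at 0. KCNQ5, KCNT1 and TRPM6 lie left of the 2-fold line in both panels with Cholistani, and in the Jersey-Holstein panel KCNQ5 is the only filled point past a 2-fold line.

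Between Cholistani and Jersey, 4 members were called higher and 5 lower, which are 12.9% and 16.1% of the members, against 17.2% and 14.2% of all models. These shares lie near those of the series. Of the higher calls only KCNMB4 had a value above 0 in both libraries, and of the lower calls KCNQ5, KCNT1 and TRPM6. Among the 23 members above 0 in all libraries, 1 was higher and 3 were lower, against 11.5% and 7.63% of such models. The median log2 fold of the members was 0.13, and of all models 0.12. By family the medians were 0.36 for potassium channel models, -0.06 for TRP and -0.73 for chloride models. This comparison uses the same Cholistani library as that with Holstein, so the 2 are not independent. In 14 members Cholistani had the highest value of the 3 libraries (45.2%, against 50.2% of all models) and in 14 the lowest (45.2%, against 32.7%).

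Between Jersey and Holstein, 2 members were called higher (6.45%, against 7.99% of all models) and 3 lower (9.68%, against 4.7%). Of these 5 calls, 4 rested on a 0: KCNG1 and TRPM4 in Holstein, and KCNE3 and TRPC1 in Jersey. The other was KCNQ5, so that among the 23 members above 0 throughout none was higher and 1 was lower, against 2.33% and 1.38% of such models. The median log2 fold of the members was 0, as was that of all models. In all, 16 members were called in no pair. The values of 8 members lay within 1.5-fold of each other across the libraries, namely CLCN7, CLIC1, KCND1, KCNH2, KCNK5, KCNK6, KCNN3 and TRPC4AP. The same shares over all models were not computed, so neither count sets the channels apart from the series.

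**Figure D3:**
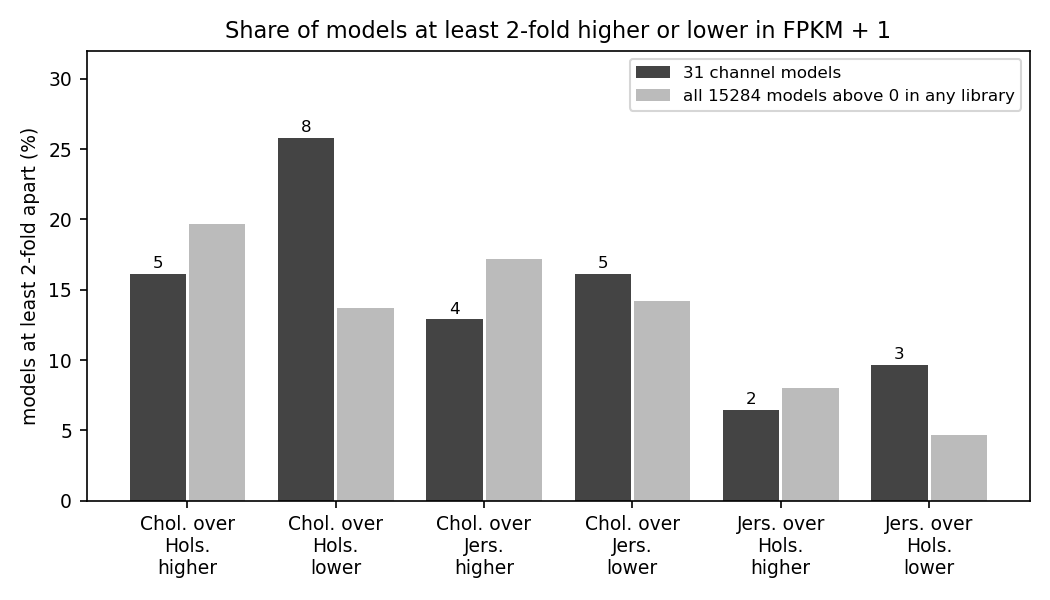
Share of the 31 channel models (dark bars, with the number of models above) and of all 15284 compared models (light bars) called higher or lower at 2-fold in FPKM + 1, for each pair of libraries. The bars lie farthest apart for models lower in Cholistani than in Holstein, at 25.8% and 13.7%.

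The scale of the libraries bears on these counts. Over the models with a value in each library, the FPKM sums were 5949765, 6288105 and 9518432. Rescaling each library to the mean sum moved the median log2 fold of all models between Cholistani and Holstein from 0.15 to -0.43, and that of the members from -0.23 to -0.84. Higher and lower calls among the members then became 4 and 14, against 11.6% and 27.5% of all models. Against Jersey the counts became 3 and 10 (10.4% and 26.2% of all models), and between the taurine libraries 2 and 4 (7.74% and 5.11%). Against Holstein the 8 lower calls were all kept, and CLCN3, CLCN6, KCND1, KCNK6, TRPC4AP and TRPM7 were added. The log2 folds of CLCN7, CLIC1, KCNK5, KCNMB4, KCNN3 and TRPC2 changed sign.

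Markers of blood cells were set beside these values. Of 10 T cell markers 5 were found by name, all above 0, with sums of 5231, 5353 and 10603 FPKM, and 1 of them was called higher in Cholistani than in Holstein. Sums of the 4 of 8 B cell markers found were 7003, 8688 and 16736 FPKM, mostly from CD79A (5281, 6190 and 14273 FPKM). CD79A was called higher in Cholistani than in each taurine library, PAX5 (296, 381 and 145 FPKM) lower, and 2 neither. The 3 of 8 cytotoxic markers found summed to 1017.5, 773 and 3417 FPKM, and all 3 were called higher in Cholistani than in each taurine library. For 4 of 8 monocyte markers the sums were 1612, 1076 and 1655 FPKM, and for 5 of 8 neutrophil markers 19238, 16623 and 18374 FPKM, with the neutrophil protease MMP9 at 0 in Jersey. The neutrophil sums came mostly from S100A8 and S100A9, whereas the receptors CXCR2 (33.5, 7.62 and 598 FPKM) and CSF3R (657, 532 and 1976 FPKM) were called higher in Cholistani than in each taurine library. TRPM2 was called higher in Cholistani than in Holstein at the limit (log2 fold 1.01), but not against Jersey (0.81). The call against Holstein was lost with centring, with a pseudocount of 10 FPKM and with either rescaling. Eosinophil markers (2 of 5 found) summed to 7.60, 46.2 and 23.1 FPKM, with PRG3 at 0 in Holstein and Cholistani. The 6 of 8 platelet markers found summed to 6355, 4759 and 1542 FPKM, with 3 called lower and 1 higher in Cholistani than in Holstein and GP1BA at 0 in Jersey and Cholistani. The 4 of 8 red cell markers found summed to 549, 385 and 102 FPKM, with 2 lower and 1 (HBA) higher in Cholistani than in Holstein and AHSP at 0 in all libraries. Of 20 immediate early and inflammatory genes 14 were found, and 13 of these were called higher in Cholistani than in Holstein. Marker calls against Holstein that rested on a 0 were EGR3 and HBA (0 in Holstein) and EPB42 and GP1BA (0 in Cholistani). Over all models, 19.7% were called higher and 13.7% lower in Cholistani than in Holstein, and 17.2% and 14.2% than in Jersey. In bulk leukocytes, fewer cells of a type and less RNA per cell cannot be told apart. The part of these differences in the channel values was not tested.

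**Figure D4:**
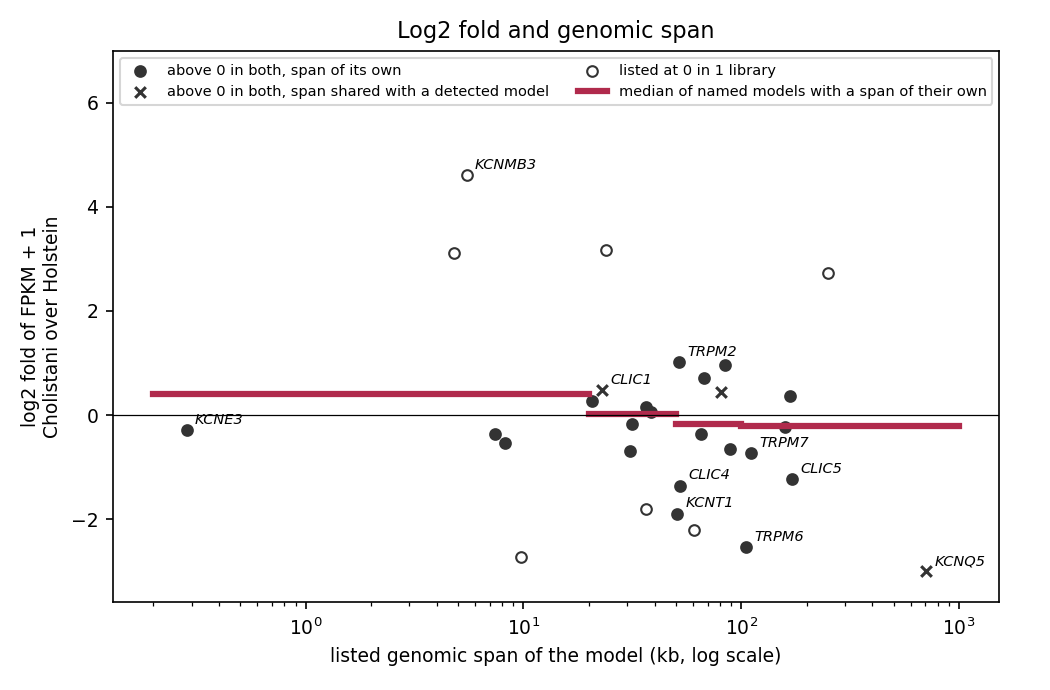
Log2 fold of FPKM + 1 between Cholistani and Holstein against the listed genomic span (kb, log scale) of 30 of the 31 channel models, with bars at the median of all named models with a span of their own in 4 span classes. The median falls from 0.41 under 20 kb to -0.21 at 100 kb or more, and the members called lower with a value above 0 in both libraries all span over 50 kb.

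Genomic span, which the names did not use, moved with the folds across the series. Among named models with a span of their own, the median log2 fold between Cholistani and Holstein was 0.41 for 4347 models under 20 kb, 0.01 for 2229 models of 20 to 50 kb, -0.18 for 1279 models of 50 to 100 kb and -0.21 for 828 models of at least 100 kb. The lower calls rose from 8.53% to 10.6%, 16.2% and 17.6% over these classes. Lower in Cholistani without a 0 were CLIC4 (52.4 kb), KCNT1 (50.6 kb), TRPM6 (104.8 kb), CLIC5 (170.3 kb) and KCNQ5 (705 kb). The spans of these 5 members all lay in the classes from 50 kb, as did those of CLCN3 (89.2 kb) and TRPM7 (110.6 kb). CLIC5 and KCNQ5 shared their spans with another model, which for CLIC5 was not above 0 in any library. The log2 folds of all these members, CLCN3 and TRPM7 included, ran from -0.66 to -3.00. They were picked for low Cholistani values, so the medians of those classes are no measure for them. Members with similar spans and folds above 0 included TRPM2 (51.7 kb), KCNK1 (67.3 kb) and KCNK10 (84.3 kb). The lower calls that rested on a 0 spanned 9.73 kb (KCMB1), 36.5 kb (CLCN1) and 60.9 kb (TRPC1). Over the members with a span of their own, the medians were -0.33 (6 members), -0.43 (4), -0.51 (8) and -0.48 (4) from the shortest to the longest class. Between Jersey and Holstein the 4 medians of all models ran only from 0.06 to -0.07. The part of span in the channel values was not tested.

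Other genes of ion transport were counted in the same way. Of 127 listed genes 80 were found by name and 52 were above 0. Between Cholistani and Holstein 5 were called higher (9.62%, against 19.7% of all models), 5 lower (9.62%, against 13.7%) and 42 neither, with a median log2 fold of -0.01. Against Jersey 7 were higher (13.5%, against 17.2%) and 6 lower (11.5%, against 14.2%). Between Jersey and Holstein 1 was higher (1.92%, against 7.99%) and none lower (4.7% of all models).

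ORAI3, a pore subunit of store-operated calcium entry, was the most abundant of its list with 349.8, 328 and 345 FPKM. Of the 12 genes of calcium entry and release above 0, 3 were lower in Cholistani than in Holstein, 1 was higher and 8 were neither. The lower ones included ITPR1, a calcium release channel of the endoplasmic reticulum (102, 101.2 and 47.1 FPKM), and CCDC109A, the mitochondrial calcium uniporter (189, 133 and 52.2 FPKM). HVCN1, the proton channel that balances charge during the oxidative burst, led the other cation channels with 609, 720.4 and 596 FPKM, and 2 of 13 genes in this list were higher in Cholistani and 1 lower. The lower gene, SCN3A, a sodium channel pore named after its values were seen, had 40.3 and 39.3 FPKM in the taurine libraries and was listed at 0 in Cholistani.

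None of the 9 other anion channel genes was called between Cholistani and Holstein. The most abundant by mean level was VDAC1, a pore of the outer mitochondrial membrane, with 389, 405 and 502 FPKM. Pumps and exchangers had 2 genes higher, 1 lower and 6 neither. The most abundant was ATP2A3, a calcium pump of the endoplasmic reticulum in blood cells (1034, 1055 and 1358 FPKM). The 9 genes that carry the calcium signal to NFAT were called in no pair of libraries. The calmodulin model was the most abundant of them, with 936, 803 and 1512 FPKM.

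**Figure D5:**
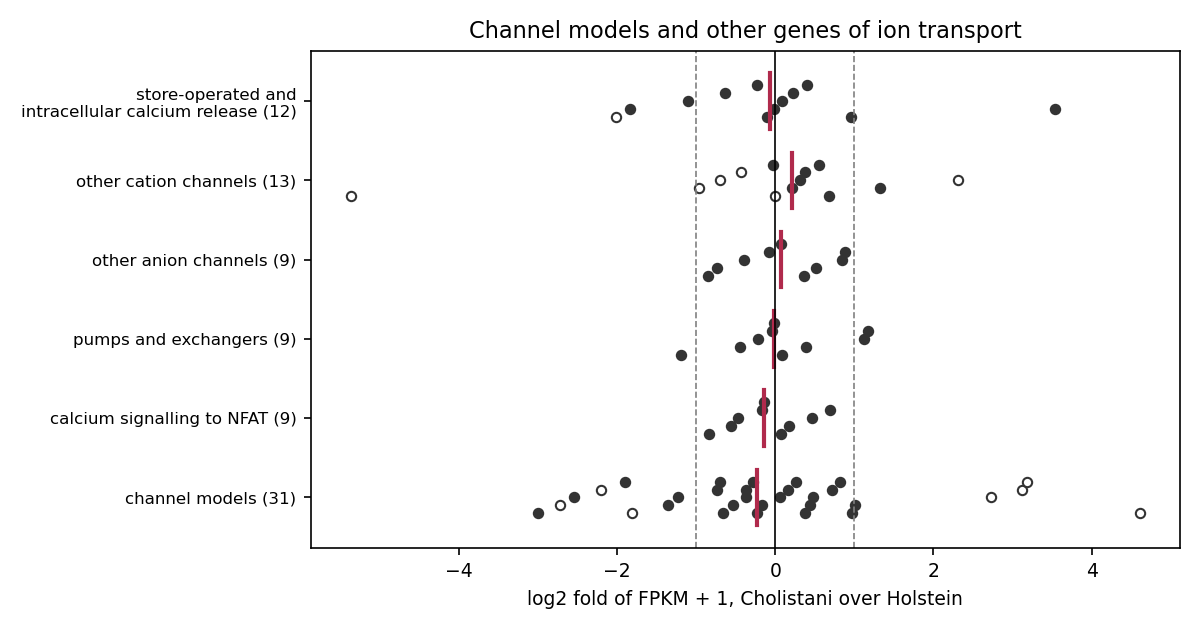
Log2 fold of FPKM + 1 between Cholistani and Holstein for the 52 detected genes of 5 other ion transport lists and for the 31 channel models, 1 point per gene, with list medians as bars, 2-fold limits dashed and open circles where a library was listed at 0. The list medians lie between -0.14 and 0.21, and that of the channel models at -0.23.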

How the data were processed

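mRNA-Seq was done by the authors on leukocytes of pooled blood, with 1 library for each of Holstein, Jersey and Cholistani. Per the labels and the methods of the study, reads were aligned to btau4.0 with TopHat 1.0.14 and Bowtie 0.12.7, reads at many locations were discarded, and transcripts were assembled with Cufflinks 0.9.3 and merged with Ensembl genes. The deposited values are FPKM, which the authors scaled by the upper quartile and corrected for bias. They keep no fragment counts, and low values showed no steps from which reads could be recovered, so depth per gene is unknown. The table names genes but does not give exon structures, and strand use in the assignment of reads is not given in the sources used here.

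The 25968 models were read as deposited and 1 was added to listed starts. In 5 models only Cholistani has a value, and the 2 of these above 0 were left out of folds, which leaves 15284 compared models. Folds were log2 ratios of FPKM + 1 (pseudocount 1), called at 2-fold. Every member was to be accounted for, and companion genes were named where they reached 50 FPKM and differed at least 2-fold between Cholistani and both taurine libraries in 1 direction, or led their list. Of the models so named, 1 member and some companion genes are not reported here, though they enter the counts. Lists were matched by symbol or protein entry name, taking the most abundant model of a name. The members and lists were chosen with earlier results of these data known. Alternatives were a pseudocount of 0.1 or of 10, only models that reach 10 FPKM, detection limits of 1 and 10 FPKM, centring on the median of models with at least 10 FPKM in both libraries, rescaling to a sum of 1000000 or to the mean sum, and summing models of 1 name. Leaving out members that share a span with a detected model, or that are at 0 in any library, was added after seeing the data. Python 3.11.15 with numpy 2.4.6, pandas 2.3.3 and matplotlib 3.10.9 was used.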

Additional observations from a re-analysis of the deposited data

How the results depend on the processing

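No paired analysis was possible because each breed has 1 library, and for the same reason no replicate could be left out. No fold of a member that passed the 2-fold limit turned to the other direction under any alternative. Between Cholistani and Holstein, the counts of all, higher and lower calls (13, 5 and 8 as reported) were 6, 1 and 5 with a pseudocount of 10, 7, 2 and 5 among models with at least 10 FPKM, and 6, 1 and 5 without members at 0 in a library. Higher calls were 1 after rescaling to a sum of 1000000 and 3 without members that share a span, and lower calls were 14 after rescaling to the mean sum. The median log2 fold of -0.23 became -0.12 with a pseudocount of 10, -0.43 with centring, -0.51 and -0.84 with rescaling to 1000000 and to the mean sum, and -0.36 without members that share a span. Between Cholistani and Jersey (9, 4 and 5 calls), a pseudocount of 10 gave 3, 2 and 1, and leaving out members at 0 gave 4, 1 and 3. Lower calls were 3 with the minimum of 10 FPKM and 10 after rescaling to the mean sum, and higher calls were 2 after rescaling to 1000000 and 2 without members that share a span. The median of 0.13 changed sign to -0.041 with centring, -0.21 and -0.34 with the rescalings, and -0.12 without members that share a span or without members at 0. Between Jersey and Holstein (5, 2 and 3 calls), there were 8 calls, 5 of them lower, with a pseudocount of 0.1, 2 calls and 0 higher with a pseudocount of 10 or a minimum of 10 FPKM, 3 calls and 0 higher after rescaling to 1000000, 3 calls and 1 higher without members that share a span, and 1 call (lower, with 0 higher) without members at 0. The higher and lower shares of all models between Cholistani and Holstein were 15.6% and 8.27% with a pseudocount of 10, 19.2% and 12.3% with the minimum of 10 FPKM, 16.1% and 16.5% with centring and 9.28% and 21.7% after rescaling to 1000000. Against Jersey they were 13.4% and 8.69%, 16.8% and 12.6%, 14.1% and 16.6%, and 8.31% and 19.97%. Between Jersey and Holstein they were 8.30% and 4.91% with a pseudocount of 0.1, 4.85% and 2.64% with 10, 6.82% and 3.88% with the minimum, and 5.81% and 3.60% after rescaling to 1000000. These shifts follow in part from how the alternatives are built. Centring takes the same value from every fold of a pair, and rescaling multiplies every value of a library by the same factor. Rescaling to a sum of 1000000 also shrinks the values while the pseudocount stays at 1, so it weighs more on low values. KCNG1, KCNK7 and TRPM4 lost their calls against Holstein there (0.85, 0.88 and 0.67). They kept them at the mean sum (2.77, 2.84 and 2.40), whereas TRPM2 lost its call at both. A minimum or an omission leaves fewer models, and a larger pseudocount weighs on low values. Any other cause of the shifts was not tested. Summing models of 1 name changed nothing, since no member shares its name with another model, and detection limits of 1 and 10 FPKM kept the numbers detected within 1.5 times. Depth per gene is unknown, so a value of 0 could not be given an upper limit.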

Other observations

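Several channel subunits are filed in the table under protein entry names that do not begin with the family names, and 8 such models were looked up after the values were seen. Of these, 5 were above 0 in some library and 3 (KCNAB1, CACNG1 and CACNG3) were listed at 0 in all. KCNAB2, a beta subunit of voltage-gated potassium channels, had 249, 211 and 238 FPKM (Holstein, Jersey, Cholistani), more than any potassium channel model among the members. The inward rectifier KCNJ2 had 16.9, 8.09 and 10.5 FPKM. Of the calcium channel beta subunits, CACNB3 had 12.99, 23.8 and 21.0 FPKM, CACNB2 had 3.68 FPKM in Jersey and was listed at 0 in the other two libraries, and CACNB1 had 13.7, 36.7 and 11.3 FPKM. CACNB1 was thus highest in Jersey, at a log2 fold of 1.35 over Holstein and with Cholistani at -1.61 to Jersey.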
